A study of Danio rerio with 10 samples.

Results

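Zebrafish embryos injected with a Bdh2 morpholino alone were set against embryos injected with the Bdh2 and the Atg7 morpholinos together. The comparison asks what the Atg7 morpholino changed, on a Bdh2 background, in genes that mark tissue differentiation and developmental stage. It rests on 4 of the 10 arrays of the series: the 3 titled as Atg7 and Bdh2 dual morphants, called dual arrays here, and the only array titled as a Bdh2 morphant. The Bdh2 side thus has 1 array, and no value on that side has a replicate. The remaining 6 arrays, 3 of control morphants and 3 of Atg7 morphants, supplied the spread for the test and showed the step made by the same Atg7 morpholino on a control background. All groups were wild-type embryos, injected at the 1- to 2-cell stage with 1 to 2 nL of a 130 micromol/L morpholino solution and taken whole at 72 h after fertilization, so no group was left uninjected. The strain, the number of embryos per array, the clutches and whether 130 micromol/L held for each morpholino of a pair or for their sum are not given in the sources used here. Morpholinos are antisense oligomers, stable against nucleases, that bind a transcript to stop its translation or splicing and are diluted as the embryo grows. If 130 micromol/L held for the sum, the dual embryos also received less Bdh2 morpholino than the Bdh2 embryos. Added Atg7 morpholino and a lower Bdh2 dose therefore cannot be told apart in dual minus Bdh2. With 1 array, the effect of leaving out the Atg7 morpholino and anything particular to that Bdh2 sample cannot be told apart either.

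Atg7 is an enzyme that activates the small conjugated proteins on which autophagosome formation depends. Bdh2 is a short-chain dehydrogenase linked in mammals to the making of an iron-binding carrier. In the embryo at this age, progenitors that copy their DNA coexist with neurons and retinal cells that have left the cell cycle, and the order in which transcription factors appear in the retina marks its progress: atoh7 in the first-born ganglion cells, vsx1 in bipolar cells, crx in photoreceptors. Contractile proteins, cartilage collagens and the actinodins of the fin fold accumulate as muscle and skeleton mature.

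The dual arrays correlated with each other at 0.997 to 0.998 over 15502 probe sets and with the Bdh2 array at 0.992 to 0.993. The Bdh2 array correlated with the control arrays at 0.983 and with the Atg7 arrays at 0.980 to 0.982. In limma's fit over all 10 arrays, 1870 of the 15502 probe sets (12.1%) passed an adjusted p of 0.05 for dual minus Bdh2, with 1013 higher (6.53%) and 857 lower (5.53%) in the dual arrays. Only 57 of the higher (0.368%) and 21 of the lower (0.135%) differed by at least 2-fold. The Bdh2 array lay outside the range of the dual arrays in 68.4% of all probe sets and in all 1870 that passed, and in 1572 of these (84.1%) it lay outside the range of all 9 other arrays, against 39.7% of all probe sets. The shares among the probe sets that passed follow in part from the call, which rests on the same Bdh2 value. The actin control probe sets gave a 3′ minus 5′ difference, a measure of RNA quality, of 4.30 on the Bdh2 array, against 3.86 ± 0.044 (SD, n = 3) in the dual, 3.93 ± 0.11 in the Atg7 and 3.45 ± 0.067 in the control arrays. The matching GAPDH difference was 1.70 on the Bdh2 array and 1.70 ± 0.026 in the dual arrays. The part of RNA quality in the results below was not tested. Markers of several tissues of a whole embryo were bright on the dual and Bdh2 arrays alike: the skin keratin krt4 read 14.12 on the Bdh2 array, the muscle actin actc1b 14.37, the yolk and liver lipoprotein apoa1a 14.22 and the globin hbae3 12.55. The hepatocyte gene fabp10a, the pancreatic protease prss1 and the myelin gene mbpa read 4.49, 5.03 and 3.79 there, in the dimmest 25% of genes, which ended at a mean level of 5.43. The bdh2 probe set read 7.47 on the Bdh2 array and 7.38, 7.28 and 7.17 on the dual arrays, a difference of -0.20 ± 0.10 (adjusted p = 0.249); where translation is blocked the transcript may stay, so this checks no label. No probe set was named atg7.

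Values below are deposited log2 intensities in the order dual 1, dual 2 and dual 3, differences are dual minus Bdh2 on the log2 scale with standard errors from the fit (3 dual arrays against 1), and a gene is said to have been higher or lower where its adjusted p was under 0.05. In the lists and in counts over genes, each gene stands by 1 probe set, the brightest on average. A gene named for its large change or departure stands by its probe set with the largest absolute value, a choice that favours large values. Over all 8793 named genes, 1177 passed (13.4%), 590 higher (6.71%) and 587 lower (6.68%) in the dual arrays, with a median difference of -0.06, and list counts are read against these shares. In whole embryos, fewer cells of a type and less RNA per cell cannot be told apart. The lists themselves were written with earlier results of these data known. An excess of a list over these shares is therefore a description and not independent support. Genes outside the naming rule given in the methods were chosen after their values were seen.

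**Figure D1:**
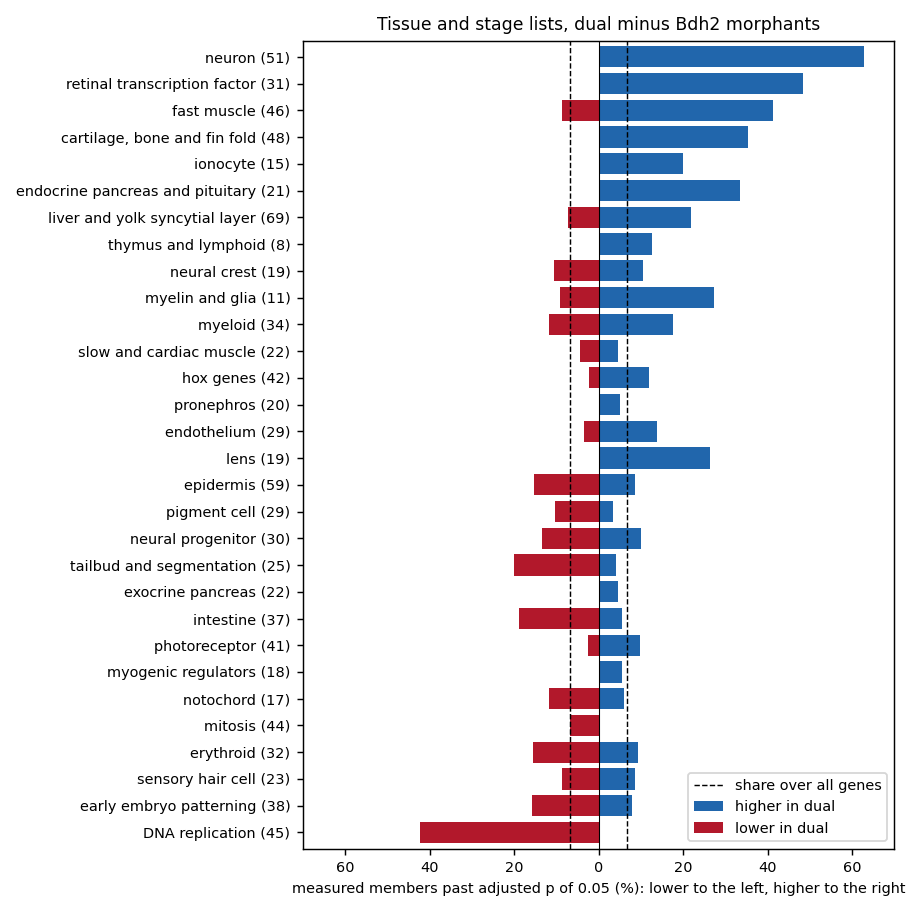
Share of the measured members of each of 30 tissue and stage lists that were higher (blue, right) or lower (red, left) in the dual arrays than on the Bdh2 array, in percent, with the number of members in parentheses; dashed lines give the shares over all genes, 6.71% higher and 6.68% lower. Lists are ordered by their median difference, from neuron at the top to DNA replication at the bottom.

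Retinal transcription factors were higher in the dual arrays than on the Bdh2 array: 15 of 31 measured members (48.4%, against 6.71% of all genes) were higher, none was lower, and the median difference of the list was 0.30. The gene with the largest rise of all was crx, the homeobox factor of photoreceptor precursors, which read 6.35, 6.48 and 6.39 on the dual arrays and 4.004 on the Bdh2 array. The dual values overlapped the control arrays, and the Bdh2 value lay below every other array. The difference was 2.402 ± 0.11, a 5.29-fold higher level (adjusted p = 9.00e-07). The bipolar cell factor vsx1 read 7.57, 7.61 and 7.79 against 5.54, again with the Bdh2 array alone at the bottom, and differed by 2.12 ± 0.13 (4.34-fold, adjusted p = 2.28e-06). For atoh7, needed for ganglion cells, the dual arrays read 6.98, 7.04 and 6.96 and the Bdh2 array 5.49, a difference of 1.504 ± 0.087 (adjusted p = 1.86e-06). These 3 genes span early and late steps of retinal cell production, and the dual arrays overlapped the control arrays for crx and exceeded them for vsx1 and atoh7. The control arrays read 6.42, 6.36 and 6.48 for crx, 7.25, 7.11 and 7.03 for vsx1 and 6.63, 6.59 and 6.55 for atoh7.

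Other members of the list that passed were higher by less. The rod factor nr2e3 read 5.78, 5.74 and 5.56 against 4.36 (difference 1.33 ± 0.10, adjusted p = 9.20e-06). The amacrine cell factor tfap2b read 8.35, 8.40 and 8.42 against 7.15 (difference 1.24 ± 0.084, adjusted p = 5.50e-06). Both had the Bdh2 array below all 9 others, and for tfap2b the dual arrays overlapped the control arrays, at 8.41, 8.28 and 8.37. The LIM homeodomain gene isl1a, which also marks motor and sensory neurons and is read by probes shared with other transcripts, differed by 1.00 ± 0.075, and its second probe set by 0.46. The eye field and progenitor genes otx2b, six6b and foxn4 differed by 0.77 ± 0.10, 0.68 ± 0.12 and 0.67 ± 0.080, although the other 2 foxn4 probe sets, at -0.19 and 0.01, did not pass. At the small end, ptf1a, which acts in amacrine and horizontal cells and in the pancreas, differed by 0.36 ± 0.094; its call was lost without dual array 1 or dual array 2 (adjusted p = 0.0535 and 0.076) and with the 4 dual and Bdh2 arrays alone in the fit (adjusted p = 0.0808). The remaining 16 members did not pass, and their differences reached down to -0.37.

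Most genes that photoreceptors use to detect light were dim and did not pass. Of 41 measured members of the photoreceptor list, 4 were higher and 1 lower (9.76% and 2.44%), the median difference was -0.09, and 27 of the 41 lay in the dimmest 25% of genes. The 4 that were higher included crx, nr2e3 and another transcription factor, six7, with a difference of 0.66 ± 0.12; a second, dimmer six7 probe set differed by 0.01 and did not pass. The fourth was the cone transducin subunit gngt2a, at 4.12, 3.92 and 3.80 on the dual arrays and 3.52 on the Bdh2 array (difference 0.43 ± 0.12, adjusted p = 0.0333), low on all of them. The gngt2a call was lost without control array 2, dual array 1 or dual array 2 (adjusted p = 0.0501, 0.0543 and 0.062). The member that was lower, the guanylate cyclase activator guca1c, read 3.33, 3.34 and 3.28 against 3.58 and lost its call without any 1 of the 9 other arrays (adjusted p of 0.0535 to 0.0954). Neither of these 2 calls held with the 4 arrays alone (adjusted p = 0.0916 and 0.128). The cone transducin gnat2 read 4.24, 4.198 and 4.03 against 4.32, the cone phosphodiesterase pde6c 4.60, 4.40 and 4.57 against 4.66, and the ultraviolet opsin opn1sw1 4.82, 4.65 and 4.39 against 4.93, with adjusted p of 0.492, 0.515 and 0.29. None of these 3 genes passed.

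In the lens, 5 of 19 members were higher and none lower (26.3%), although the list's median difference was -0.04. The rises were largest in bright crystallins. The gamma crystallin crygmxl2 read 9.79, 9.92 and 9.73 on the dual arrays and 8.38 on the Bdh2 array, which lay below all 9 others (difference 1.44 ± 0.092, 2.71-fold, adjusted p = 3.83e-06). The beta crystallins cryba4 and crybb1 differed by 1.00 ± 0.089 and 0.73 ± 0.080, but their Bdh2 values of 10.04 and 9.32 lay above the control arrays, whose values were 9.50, 9.48 and 9.60 for cryba4 and 8.65, 8.75 and 8.72 for crybb1. Thus the dual arrays were the highest group for both beta crystallins, while for crygmxl2 the dual and the Atg7 arrays stood together at 9.79, 9.92 and 9.73 and 9.82, 9.80 and 9.85. Probes for cryba4 are shared with other transcripts. The alpha crystallin cryaa, with 6.37, 6.22 and 6.22 against 5.79, did not pass (adjusted p = 0.0769).

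**Figure D2:**
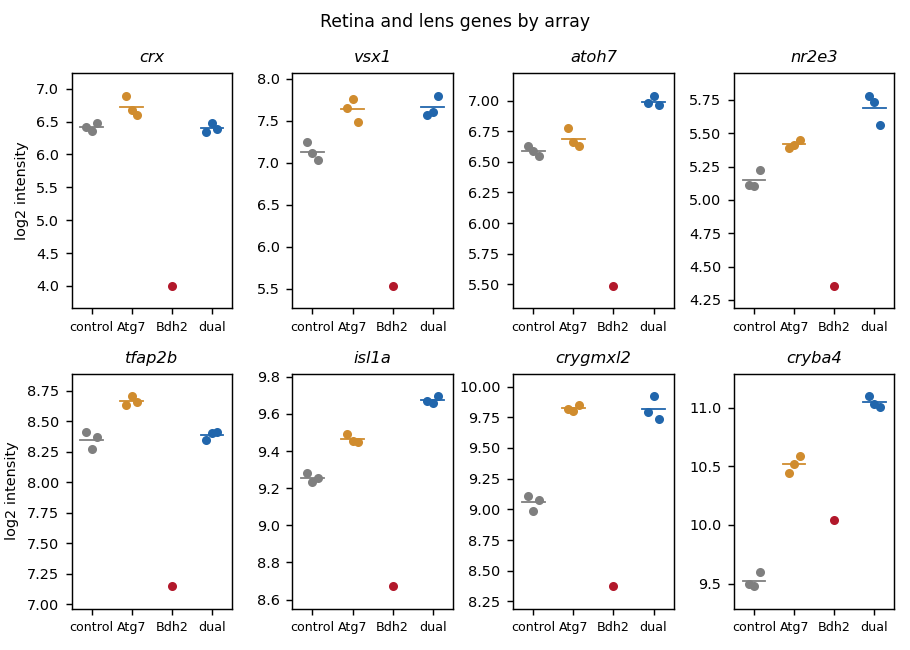
Log2 intensity of 8 retina and lens genes on each array, by group (control, Atg7, Bdh2, dual); points are arrays, horizontal lines are means of the 3 arrays of a group, and each panel has its own axis, which does not start at 0. The single Bdh2 point is the lowest of the 10 in every panel but cryba4, where it lies between the control and the Atg7 arrays.

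The neuron list held the largest share of higher genes among the 30 lists: 32 of 51 members (62.7%, against 6.71% of all genes) were higher in the dual arrays, none was lower, and the median difference was 0.51. In 30 of the 51 the Bdh2 array was the lowest of the 10, which it was in 16.5% of all genes. Relative to the control mean, the list's median was 0.10 to 0.15 on the dual arrays, 0.12 to 0.15 on the Atg7 arrays and -0.32 on the Bdh2 array. Besides isl1a, described above with the retinal factors, the member with the smallest adjusted p was islr2, a membrane protein of growing axons, at 10.73, 10.81 and 10.85 on the dual arrays and 9.77 on the Bdh2 array (difference 1.03 ± 0.087, adjusted p = 2.46e-05). The control arrays read 10.58, 10.57 and 10.58, so the dual arrays exceeded them and the Bdh2 array fell short of them. The microtubule regulator stmn1b read 10.22, 10.25 and 10.35 against 9.35 (difference 0.93 ± 0.086); here the dual arrays lay below the control arrays too, at 10.55, 10.51 and 10.54, and the Bdh2 array further below.

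Genes of the synapse and of transmitter synthesis were among those that were higher. The vesicle fusion protein snap25b differed by 0.90 ± 0.10, the fusion ATPase nsfa by 0.95 ± 0.089, the calcium sensor syt1a by 0.76 ± 0.088 and the GABA-making enzyme gad1b by 0.73 ± 0.083. The enzyme gad2 and the acetylcholine transporter slc18a3a differed by 0.69 ± 0.14 and 0.41 ± 0.10. The axon growth protein gap43 read 9.73, 9.72 and 9.59 on the dual arrays and 9.20 on the Bdh2 array, and the RNA-binding protein elavl3, a marker of postmitotic neurons, read 11.54, 11.41 and 11.41 against 10.90. Their differences were 0.48 ± 0.086 and 0.55 ± 0.086, and for both the Bdh2 array lay above the control arrays, which read 10.32, 10.38 and 10.33 for elavl3. Of 3 other elavl3 probe sets, those at 0.48 and 0.35 passed and 1 at 0.12 did not. The proneural factors neurod1 and neurod4 differed by 0.94 ± 0.13 and 0.44 ± 0.10. The calls for slc18a3a and neurod4 were lost with the 4 arrays alone (adjusted p = 0.0592 and 0.0644).

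Glial and progenitor genes of the nervous system did not move as 1 group. Of 30 neural progenitor genes, 3 were higher (10%) and 4 lower (13.3%), against 6.71% and 6.68% of all genes, with a median difference of -0.05. The glutamate transporter slc1a2b of radial glia read 10.83, 10.73 and 10.80 against 9.71, a difference of 1.08 ± 0.085 (adjusted p = 1.67e-05), and the radial glial fatty acid binding protein fabp7a differed by 0.78 ± 0.076. In the opposite direction, the glutamine synthetase glula read 9.94, 10.03 and 10.06 against 10.52 (difference -0.51 ± 0.082), the Hairy-related repressor her9 differed by -0.50 ± 0.091 and the receptor notch1a, whose probes are shared, by -0.48 ± 0.11. A second notch1a probe set differed by -0.04 and did not pass. In the myelin and glia list, 3 of 11 members were higher (27.3%) and 1 lower (9.09%). Those higher included the oligodendrocyte lineage factor olig2 at 0.41 ± 0.10, a call that was lost without dual array 3 (adjusted p = 0.0582).

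The genes of DNA replication moved in the opposite direction: 19 of 45 measured members (42.2%, against 6.68% of all genes) were lower in the dual arrays than on the Bdh2 array, none was higher, and the median difference was -0.32. The sign was shared by all 45 members, whose differences ran from -0.58 to -0.08. In 38 of the 45 the Bdh2 array was the highest of the 10, against 25.6% of all genes. The replicative helicase factor gins2 read 7.30, 7.22 and 7.19 on the dual arrays and 7.82 on the Bdh2 array, with the control arrays at 7.43, 7.32 and 7.40, so the Bdh2 value was above all 9 others (difference -0.58 ± 0.087, adjusted p = 0.00114). The clamp loader subunit rfc4 differed by -0.47 ± 0.081 and the helicase loading partner cdc45 by -0.46 ± 0.090. Among the minichromosome maintenance helicase subunits, mcm4 differed by -0.46 ± 0.092, mcm7 by -0.43 ± 0.090 and mcm2 by -0.38 ± 0.084, while mcm5 at -0.19 ± 0.089 did not pass (adjusted p = 0.197). The origin recognition genes orc6, orc1 and orc3 differed by -0.51 ± 0.10, -0.39 ± 0.093 and -0.35 ± 0.087. The sliding clamp pcna, one of the brightest members, read 12.80, 12.75 and 12.75 against 13.03 and missed the threshold (difference -0.27 ± 0.082, adjusted p = 0.0561). With only the 4 dual and Bdh2 arrays in the fit, 11 of the 45 members were lower, and mcm2 and orc3 were not among them (adjusted p = 0.0547 and 0.0728).

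Members that divide chromosomes changed less. Of 44 mitosis genes, 3 were lower (6.82%), close to the share over all genes, none was higher, and the median difference was -0.14. The Bdh2 array was the highest of the 10 in 32 of them, against 25.6% of all genes. The cytokinesis motor kif20a read 9.66, 9.81 and 9.89 against 10.21 (difference -0.43 ± 0.11; a second probe set, at -0.22, did not pass), the spindle checkpoint protein mad2l1 differed by -0.36 ± 0.094 and the polo kinase plk1 by -0.33 ± 0.092. The call for mad2l1 was lost without dual array 2 (adjusted p = 0.068), and that for plk1 without control array 1 or 2 or dual array 1 or 3 (adjusted p of 0.0542 to 0.0762). None of the 3 calls held with the 4 arrays alone (adjusted p = 0.0632 for kif20a, 0.0861 for mad2l1 and 0.101 for plk1). Relative to the control mean, the median of the DNA replication list was 0.02 to 0.06 on the dual arrays and 0.37 on the Bdh2 array, and that of the mitosis list 0.07 to 0.14 and 0.29. For both lists the dual arrays lay nearer to the control arrays than the Bdh2 array did.

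**Figure D3:**
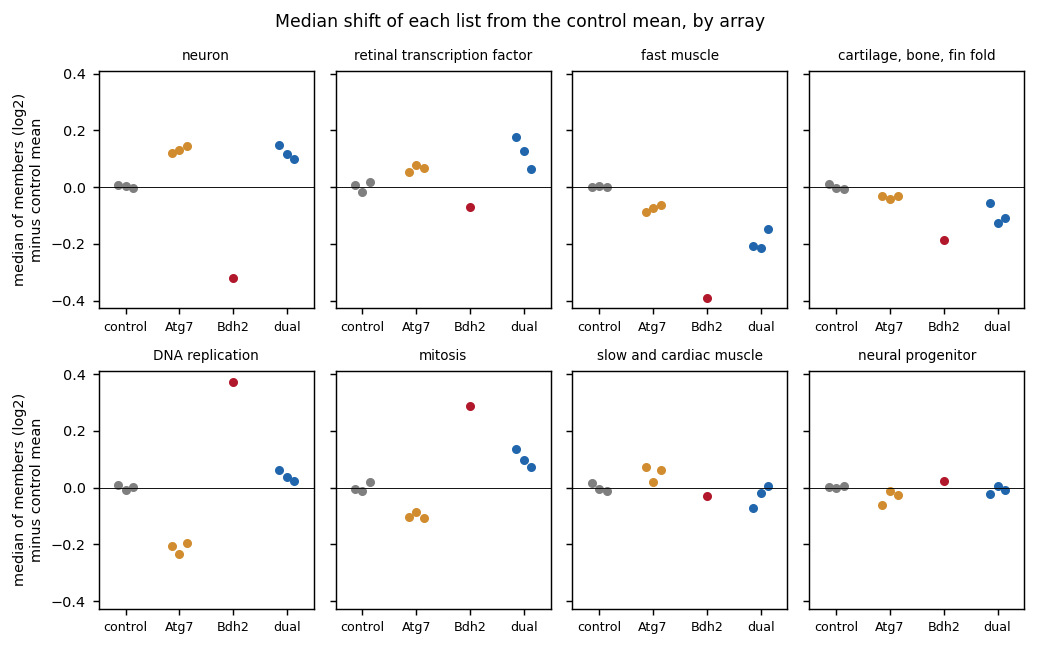
Median over the members of 8 lists of the log2 difference from the mean of the 3 control arrays, for each array, by group; points are arrays and the horizontal line marks the control mean. The Bdh2 array is the lowest point in neuron (-0.32), retinal transcription factor, fast muscle and cartilage, bone and fin fold, and the highest in DNA replication (0.37) and mitosis (0.29).

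In fast muscle, 19 of 46 members were higher in the dual arrays (41.3%) and 4 lower (8.70%), with a median difference of 0.24. In 28 of the 46 the Bdh2 array was the lowest of the 10, which it was in 16.5% of all genes. With only the 4 dual and Bdh2 arrays in the fit, 11 members were higher. The largest rise was of atp2a1l, a calcium pump of the sarcoplasmic reticulum, at 8.35, 8.41 and 8.43 on the dual arrays and 7.08 on the Bdh2 array. The control arrays read 10.23, 10.23 and 10.14 and the Atg7 arrays 9.74, 9.65 and 9.89, so the dual arrays stood between the Bdh2 array and both other groups. The difference was 1.31 ± 0.10, or 2.49-fold (adjusted p = 9.26e-06). The Z-disc protein ldb3a differed by 0.67 ± 0.077, the thin filament ruler neb by 0.83 ± 0.11 and the fast troponin T tnnt3b by 0.68 ± 0.090. Among the calcium-binding parvalbumins, pvalb1, pvalb2, pvalb3, pvalb4 and pvalb5 all passed, with differences of 0.58, 0.46, 0.42, 0.39 and 0.63. The muscle creatine kinase ckma and the light chain mylz3 were among the brightest, at 12.88 and 13.23 on the Bdh2 array, and differed by 0.36 ± 0.080 and 0.31 ± 0.075.

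The 4 fast muscle members that were lower included genes of folding and assembly. The troponin I gene tnni2b.1 read 9.71, 9.83 and 10.01 on the dual arrays and 10.73 on the Bdh2 array, above all 9 others (difference -0.88 ± 0.11, adjusted p = 0.000434). The myosin chaperones hsp90aa1.1 and unc45b differed by -0.58 ± 0.075 and -0.38 ± 0.090, and the actin-binding nexn by -0.31 ± 0.086, a call lost without control array 1 or 2 or dual array 1 or 2 (adjusted p of 0.0502 to 0.0953). With the 4 arrays alone the calls for ckma, mylz3, unc45b and nexn were lost (adjusted p = 0.0601, 0.081, 0.0575 and 0.101). Slow and cardiac muscle showed little of this: 1 of 22 members was higher, hand2 at 0.43 ± 0.082, 1 was lower, tnnt2c at -0.86 ± 0.12, and the median was -0.01. The slow myosin smyhc1 read 11.35, 11.41 and 11.43 against 11.37, and the cardiac light chain myl7 9.13, 9.14 and 9.07 against 9.23, and neither passed. Of 18 myogenic regulators, musk, the receptor kinase of the neuromuscular junction, was higher at 0.64 ± 0.10, none was lower and the median was -0.11.

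Genes of cartilage, bone and fin fold were higher in 17 of 48 members (35.4%) and lower in none, with a median difference of 0.22. The 3 actinodin genes and1, and2 and and3, which encode structural proteins of the fibres that hold the larval fin fold, were among them. Probes for and3 are shared with other transcripts. The gene and2 read 9.28, 9.22 and 9.36 on the dual arrays and 8.20 on the Bdh2 array, with the control arrays at 11.14, 11.12 and 11.03 and the Atg7 arrays at 9.95, 10.08 and 10.12; no 2 groups overlapped, and the Bdh2 array was the lowest. Its difference was 1.09 ± 0.095 (2.12-fold, adjusted p = 3.07e-05), and those of and3 and and1 were 0.74 ± 0.089 and 0.58 ± 0.093. The hypertrophic cartilage collagen col10a1a read 5.38, 5.42 and 5.34 against 4.34, while the control arrays read 8.05, 8.04 and 8.09 (difference 1.04 ± 0.077, adjusted p = 9.26e-06). The dual arrays were far closer to the Bdh2 array than to the control arrays for col10a1a.

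**Figure D4:**
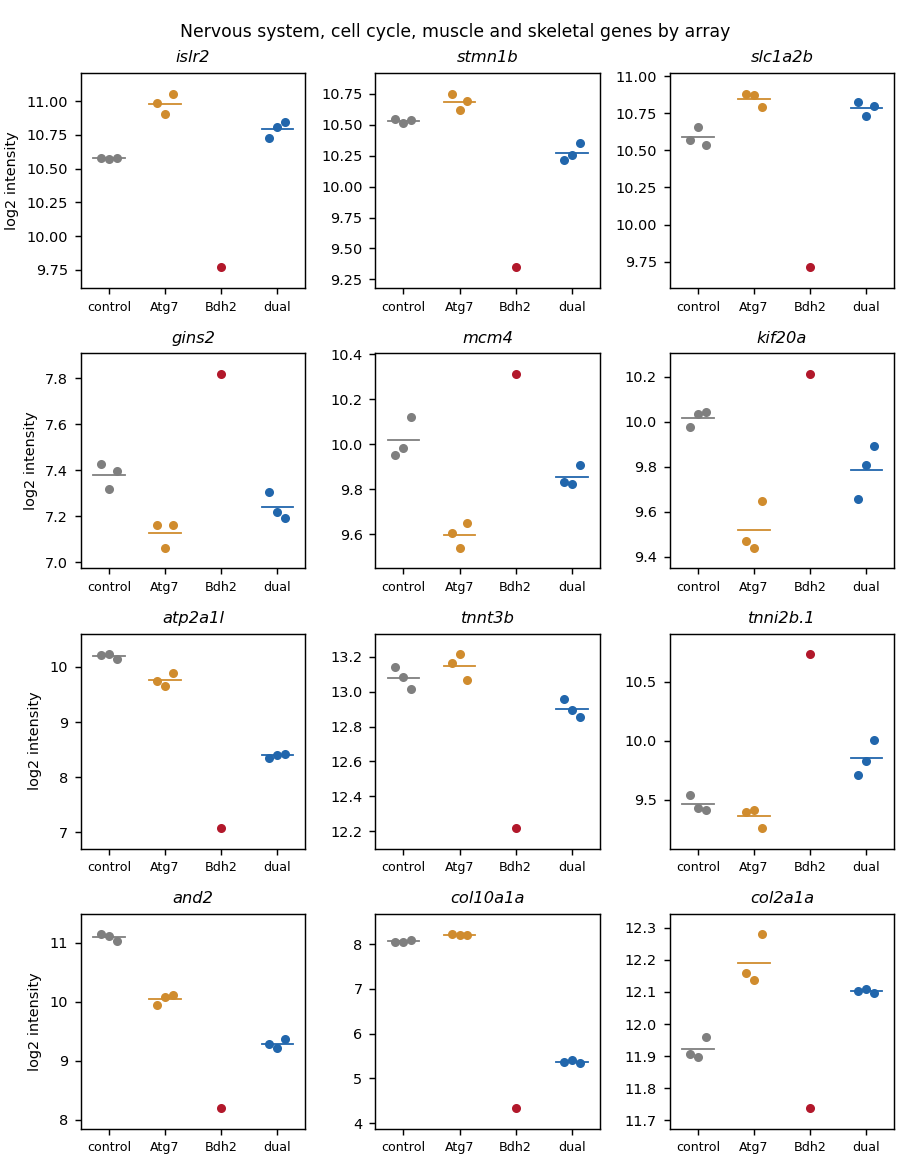
Log2 intensity of 12 genes of neurons and glia (islr2, stmn1b, slc1a2b), the cell cycle (gins2, mcm4, kif20a), muscle (atp2a1l, tnnt3b, tnni2b.1) and skeleton (and2, col10a1a, col2a1a) on each array, by group; points are arrays, lines are group means, and each panel has its own axis, which does not start at 0. The Bdh2 array is the lowest or highest of the 10 arrays in each panel, and the dual arrays do not overlap it in any.

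Cartilage matrix collagens changed by less. The fibrillar collagen col2a1a read 12.10, 12.11 and 12.10 against 11.74 (difference 0.36 ± 0.083), and col9a1b, of cartilage and notochord, differed by 0.42 ± 0.10, a call lost with the 4 arrays alone (adjusted p = 0.0608). The bone and skin collagens col1a1a and col1a2 differed by 0.38 ± 0.077 and 0.42 ± 0.084; probes for col1a1a are shared with other transcripts. The transcription factor runx3, which acts in cartilage and blood, differed by 0.52 ± 0.085; a second runx3 probe set, at 0.18, did not pass. In the notochord list, 1 of 17 members was higher (5.88%) and 2 lower (11.8%), and the median was -0.14. The notochord gene ntd5 read 8.03, 8.13 and 8.08 against 8.80 (difference -0.72 ± 0.11). The list's other lower call, at -0.28, was lost without any 1 of 7 replicated arrays and with the 4 arrays alone.

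Genes of early stages, which an embryo at this age uses in few cells, were mixed. In the tailbud and segmentation list, 5 of 25 members were lower (20%, against 6.68% of all genes) and 1 higher (4%, against 6.71%). The posterior homeobox gene cdx4 read 5.32, 5.36 and 5.28 on the dual arrays and 6.52 on the Bdh2 array, where it lay above all 9 other arrays (difference -1.202 ± 0.12, 2.3-fold lower in the dual arrays, adjusted p = 7.05e-05). The mesoderm factor msgn1 differed by -0.79 ± 0.12 and the secreted peptide apela by -0.61 ± 0.10, both from probes shared with other transcripts, and a second msgn1 probe set at -0.05 did not pass. The Hairy-related gene hes6 was higher, at 9.75, 9.69 and 9.79 against 9.18. The notochord and tailbud factor tbxta, at 5.81, 6.05 and 6.08 against 5.85, did not pass. In early embryo patterning, 6 of 38 members were lower (15.8%) and 3 higher (7.89%), with a median of -0.17: the ventral repressor vox differed by -0.84 ± 0.16, the Nodal co-receptor tdgf1 by -0.60 ± 0.13 and the endoderm factor gata5 by -0.48 ± 0.11, while the organizer gene gsc, from shared probes, was higher by 1.08. The gata5 call was lost with the 4 arrays alone (adjusted p = 0.0543). Of these 2 lists, 11 and 18 members lay in the dimmest 25% of genes.

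The hox genes, which record position along the body axis, were mostly flat: 5 of 42 were higher (11.9%), 1 lower, and the median was -0.01. The 5 were hoxc4a, hoxb6b, hoxb8a, hoxb5a and hoxb5b, with differences of 0.69, 0.65, 0.47, 0.36 and 0.36. The hoxb8a call was lost without dual array 3 (adjusted p = 0.0624), and its 2 other probe sets, at -0.07 and 0.22, did not pass. Those for hoxb5a and hoxb5b were lost with the 4 arrays alone (adjusted p = 0.0536 and 0.0522). The gene that was lower, hoxb1a, read 5.45, 5.68 and 5.70 against 6.40, with the control arrays at 4.96, 4.93 and 4.54 (difference -0.79 ± 0.15). Only 3 hatching gland genes were measured, of which klf17, a hatching gland factor, was lower at -0.53 ± 0.10.

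In the epidermis list, 9 of 59 members were lower (15.3%) and 5 higher (8.47%), with a median of -0.05. Keratins went both ways. The keratin krt17 read 9.78, 9.80 and 9.72 on the dual arrays and 11.05 on the Bdh2 array, with the control arrays at 9.22, 9.16 and 9.10 (difference -1.28 ± 0.085, 2.43-fold lower, adjusted p = 5.08e-06), and krt99 differed by -1.14 ± 0.12. The crosslinking enzyme tgm1l4 was lower at -0.93 ± 0.10, while krt91, krt15 and krt1-19e were higher at 0.86, 0.68 and 0.57. Probes for krt91 and krt1-19e are shared with other transcripts, and a second probe set of each, not so marked, differed by 1.01 and 0.82. The most abundant keratins krt4 and krt5 did not pass, at -0.04 ± 0.079 and -0.18 ± 0.083. Ionocytes, the ion-transporting cells of the skin, had 3 of 15 members higher (20%, against 6.71% of all genes) and none lower. They were the sodium pump subunits atp1a1a.2 and atp1a1a.3 at 0.56 and 0.48, and the ammonia channel rhbg at 0.59. For rhbg a second probe set did not pass. The rhbg call was lost without any 1 of 6 arrays, all 3 control arrays, Atg7 array 2 and dual arrays 1 and 3 (adjusted p of 0.0511 to 0.112), and with the 4 arrays alone (adjusted p = 0.0534).

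Pigment cell genes were lower in 3 of 29 members and higher in 1. The crest marker crestin read 9.18, 9.10 and 9.11 against 9.62 (difference -0.49 ± 0.088). All other calls in the list were lost with the 4 arrays alone, and each was also lost when certain single arrays were left out. The melanin enzyme dct, at 9.12, 9.11 and 9.09 against 9.07, did not pass. Of 19 neural crest genes, 2 were higher (10.5%) and 2 lower (10.5%), and the mesenchymal factor prrx1b was higher by 0.49. In the list of sensory hair cell and ear genes, 2 of 23 were higher (8.70%) and 2 lower (8.70%), near the shares over all genes. The otoconial protein oc90 read 7.54, 7.70 and 7.72 on the dual arrays and 8.62 on the Bdh2 array, with the control arrays at 6.82, 6.73 and 6.87, so the dual arrays lay between the control and the Bdh2 arrays (difference -0.96 ± 0.10). The otolith channel otop1 differed by -0.42 ± 0.090, and the factor emx2 by 0.63 ± 0.10.

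Of 32 erythroid members, 5 were lower (15.6%) and 3 higher (9.38%), with a median of -0.15. Those that were lower included the enzymes of heme synthesis urod, cpox and alas2, with differences of -0.66 ± 0.12, -0.42 ± 0.094 and -0.40 ± 0.11. For alas2, the first and rate-limiting step in red cells, the dual arrays read 5.84, 5.63 and 5.73, the Bdh2 array 6.14, the Atg7 arrays 6.18, 6.18 and 6.197 and the control arrays 7.57, 7.77 and 7.55, so the dual arrays were the lowest group; the call was lost without dual array 2 or 3 (adjusted p = 0.0768 and 0.0555) or with the 4 arrays alone (adjusted p = 0.0645). The embryonic beta globin hbbe3 read 10.70, 10.75 and 10.63 against 11.24 (difference -0.54 ± 0.087), while hbbe2 went the other way, with 7.47, 7.43 and 7.38 against 7.04 (difference 0.39 ± 0.085) and the control arrays at 10.96, 10.94 and 10.91. The most abundant alpha globin, hbae3, and the band 3 anion exchanger slc4a1a, at -0.06 ± 0.080 and 0.04 ± 0.086, did not pass. Globin genes have near-identical copies, so probes may not tell them apart.

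Myeloid genes were higher in 6 of 34 members (17.6%) and lower in 4 (11.8%), with a median of -0.01. Cathepsins were among the strongest falls. The lysosomal protease ctsc read 7.27, 7.55 and 7.68 on the dual arrays and 9.27 on the Bdh2 array, a difference of -1.77 ± 0.18 (3.42-fold lower, adjusted p = 0.000106), and ctss2.1 read 9.09, 9.08 and 9.09 against 10.58 (difference -1.49 ± 0.084). Lysozyme, lyz, read 9.80, 9.70 and 9.73 against 9.19 (difference 0.56 ± 0.082) and the myeloperoxidase mpx, from shared probes, differed by 0.72 ± 0.10, although its 3 other probe sets ranged from -0.21 to 0.12 and did not pass, and the mean of all 4 did not pass either (adjusted p = 0.399). The scavenger receptor marco was higher by 0.55. In the small thymus and lymphoid list, the chemokine ccl25b was higher by 0.75, the only 1 of 8. Of 29 endothelial genes, 4 were higher (13.8%) and 1 lower (3.45%), with the flow-responsive factor klf2a at 0.54 ± 0.091. The calls for s1pr1 (0.30) and prox1a (0.32) and for the lower gene, flt4 (-0.46), were lost with the 4 arrays alone. Each was also lost when any 1 of several replicated arrays was left out. The receptor kdrl, at 8.11, 7.98 and 8.16 against 8.05, did not pass.

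Liver and yolk syncytial layer genes were higher in 15 of 69 members (21.7%) and lower in 5 (7.25%), with a median of 0.05. Secreted plasma proteins were among the rises. The fibrinogen chain fgb read 10.42, 10.45 and 10.45 against 9.70 (difference 0.74 ± 0.088), and the chain fgg differed by 0.64 ± 0.087. The clotting factor f5 differed by 0.77 ± 0.090, leg1.1, needed for liver growth in zebrafish, by 0.86 ± 0.093, vitronectin vtnb by 0.68 ± 0.088, haptoglobin hp by 0.59 ± 0.079 and the copper oxidase cp by 0.64 ± 0.088. Transferrin tfa, at 12.83, 12.78 and 12.96 against 12.88, did not pass. The urate oxidase uox had the second largest fall of all named genes, from 5.93 on the Bdh2 array to 3.96, 4.06 and 4.12 on the dual arrays, with the control arrays at 4.38, 4.37 and 4.39 (difference -1.89 ± 0.094, 3.7-fold lower, adjusted p = 9.00e-07). The apolipoprotein apoa4a differed by -0.71 ± 0.080.

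Intestinal genes were lower in 7 of 37 members (18.9%) and higher in 2. The enterocyte fatty acid binding protein fabp2 read 11.32, 11.39 and 11.38 against 11.86 (difference -0.49 ± 0.076), the brush border phosphatase alpi.2 differed by -0.56 ± 0.093 and the tight junction gene cldn15la was higher by 0.70. In the list of endocrine pancreas and pituitary genes, 7 of 21 members were higher (33.3%) and none lower, with a median of 0.06; isl1a and neurod1, both shared with the neuron list, were 2 of the 7. Insulin, ins, read 8.46, 8.33 and 8.29 against 7.97 (difference 0.39 ± 0.092), and the peptide genes pyya and sst6.1 differed by 0.60 ± 0.090 and 0.56 ± 0.11. A second pyya probe set, at 0.28, did not pass, and the call for ins was lost with the 4 arrays alone (adjusted p = 0.0601). Exocrine pancreas and pronephros each had 1 member higher and none lower, of 22 and 20. The pronephric 1 was lhx1a, at 8.31, 8.17 and 8.23 against 6.82 (difference 1.41 ± 0.10, 2.66-fold), a LIM homeobox gene that is also used in retina and brain; its other 2 probe sets differed by 0.93 and 0.70.

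Several of the largest single changes lay outside the lists. The steroid-making enzyme cyp11a1.1 had the largest fall, from 6.45 on the Bdh2 array to 4.17, 4.39 and 4.18 on the dual arrays, with the control arrays at 4.14, 3.99 and 4.01 (difference -2.20 ± 0.14, 4.6-fold lower, adjusted p = 3.30e-06). The glycogen phosphorylase pygl read 7.84, 7.89 and 7.84 against 6.25 (difference 1.60 ± 0.11); its other probe sets, both shared, differed by 1.32 and 0.66. The lactase-like gene lctla read 6.27, 6.34 and 6.42 against 4.66 (difference 1.68 ± 0.093) and zgc:136930 8.92, 8.97 and 8.88 against 7.26 (difference 1.66 ± 0.081). The heat shock cognate hsc70 differed by 1.51 ± 0.079, with a second probe set at -0.15 that did not pass, while the small heat shock protein hspb1 was lower at -1.10 ± 0.078. The gene ndrg1b was higher by 1.42. The oxygen-sensing hydroxylase egln3 and the mitochondrial protein nipsnap1 were lower, at -1.07 ± 0.087 and -1.08 ± 0.13. In each of these 9 genes the Bdh2 array lay outside the range of all 9 other arrays. This follows in part from the naming rule, which took large differences that contain the same Bdh2 value.

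The same Atg7 morpholino on the control background changed 1536 probe sets (9.91%), 971 higher (6.26%) and 565 lower (3.64%). The comparisons dual minus Bdh2 and Atg7 minus control share no array, though they share the estimate of spread. They had 417 probe sets in common, 22.3% of the 1870 and 27.1% of the 1536, of which 308 moved in the same direction and 109 in opposite directions. Across all probe sets the 2 differences correlated at 0.223, a description without a test. DNA replication genes had medians of -0.32 on the Bdh2 background and -0.22 on the control background, where 18 of 45 members were lower in the Atg7 arrays, against 4.12% of all genes (10.4% in either direction). The members taken by the naming rule had the smallest p for dual minus Bdh2, a choice that favours larger steps on the Bdh2 background. Their steps there were -0.58 for gins2, -0.47 for rfc4 and -0.46 for cdc45. On the control background their steps were -0.25, -0.29 and -0.14. Among members chosen after their values were seen, mcm4 had steps of -0.46 on the Bdh2 background and -0.42 on the control background, and mcm7 of -0.43 and -0.44. Neuron genes had medians of 0.51 and 0.12, with 32 and 11 of 51 members higher; on the control background 6.28% of all genes were higher. The lists for fast muscle and for cartilage, bone and fin fold had medians of 0.24 and 0.22 on the Bdh2 background but -0.08 and -0.04 on the control background. Epidermis had medians of -0.05 and 0.20, with 23 of 59 members higher in the Atg7 arrays.

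**Figure D5:**
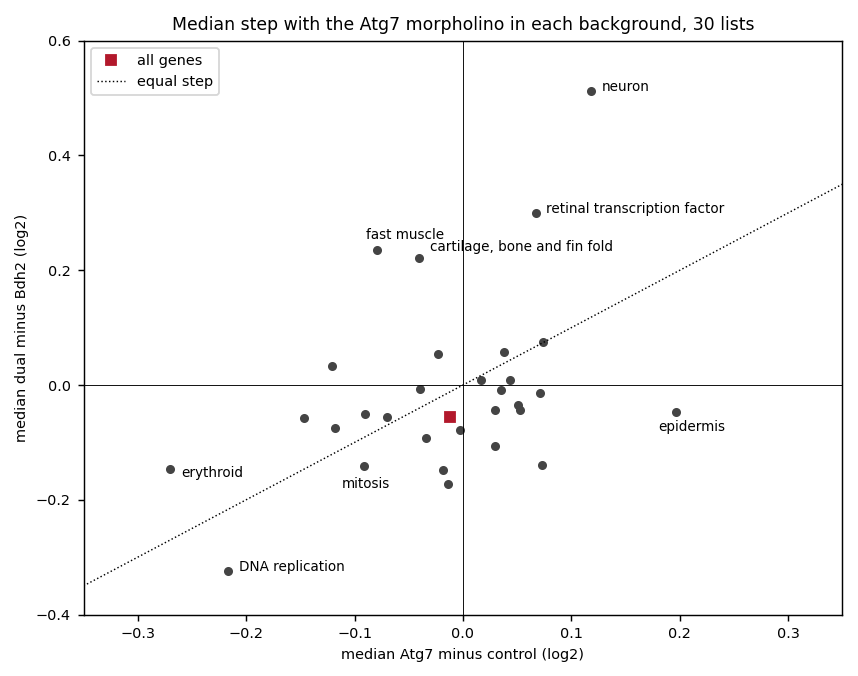
Median log2 difference of the members of each of 30 lists with the Atg7 morpholino on the control background (horizontal, Atg7 minus control) and on the Bdh2 background (vertical, dual minus Bdh2); points are lists, the red square is all genes and the dotted line marks equal steps. Neuron and retinal transcription factor lie above the line at 0.51 and 0.30, DNA replication lies low on both axes at -0.22 and -0.32, and epidermis lies to the right at 0.20.

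The difference between the steps on the 2 backgrounds, the departure from additivity, was tested in the same fit. It passed in 1261 probe sets (8.13%), 591 positive (3.81%) and 670 negative (4.32%), and 859 of the 1870 probe sets called for dual minus Bdh2 (45.9%) were among them. Over genes the shares were 4.15% positive and 5.05% negative. The overlap with the dual minus Bdh2 calls follows in part from the design, because the departure contains that difference and the same Bdh2 value. The same holds in part for the sign of departures in lists that were mostly higher in dual minus Bdh2. The departure was positive in 20 of 51 neuron genes, 15 of 46 in fast muscle, 14 of 48 in cartilage, bone and fin fold and 11 of 31 retinal transcription factors, and among these lists it was negative in 3 fast muscle genes only. It passed in 1 of 45 DNA replication genes, the ligase lig1 at -0.43, a call that was lost without control array 1 or 2, Atg7 array 2 or dual array 1 or 3 (adjusted p of 0.0501 to 0.0695), and for the other 44 no difference between the steps was detected. In erythroid genes it was positive in 9 of 32: slc4a1a was -1.62 with the Atg7 morpholino on the control background and 0.04 on the Bdh2 background (departure 1.66, adjusted p = 4.35e-06), and hbbe2 -1.504 and 0.39 (departure 1.89). Relative to the control mean, the erythroid median was -0.27 on the Bdh2 array, -0.35 to -0.20 on the Atg7 arrays and -0.42 to -0.34 on the dual arrays. It thus lay below the control mean with either morpholino alone and with both. In epidermis the departure was negative in 18 of 59. Among genes with the largest negative departures, the matrix protease mmp9 was 1.76 on the control and -0.19 on the Bdh2 background, the immediate early gene fosab 1.71 and -0.72, and the vitamin D hydroxylase cyp24a1 1.21 and -0.85. On the Bdh2 background a second cyp24a1 probe set, at -0.28, did not pass, and of 3 other fosab probe sets those at -0.65 and -0.58 passed and 1 at -0.21 did not. The fosab probe set read first has probes shared with other transcripts. The lone Bdh2 array enters each of these departures once, with no replicate. Whether the Atg7 dose was the same on both backgrounds is not given, so background and dose cannot be told apart in them.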

How the data were processed

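Whole zebrafish embryos were measured on 1-colour Affymetrix arrays, 10 in 4 groups taken from the sample titles. The deposited values are log2 intensities per probe set, made with Affymetrix Expression Console per the submitters' processing notes; the summarisation and normalization settings are not given in the sources used here. Array medians were 6.33 to 6.38, and no further scaling was applied. After 115 control probe sets were left out, 15502 were fitted with limma 3.58.1 in R 4.3.3 (group means, empirical Bayes, two-sided, Benjamini-Hochberg over all of them); the 6 residual degrees of freedom come from the 9 replicated arrays, and the lone Bdh2 array was assumed to vary as they do. Nothing says that replicates were separate clutches, so the p-values rest on a spread that may be technical. Few arrays limit the precision.

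Probe sets were named from the platform table, with symbols updated through the RefSeq GRCz12tu gene table: 10795 had 1 symbol, 135 several and 4572 none. In the lists and in counts over genes, a gene was read by its brightest probe set. For the largest changes and departures it was read by the probe set with the largest absolute value. Probe sets whose suffix marks probes shared between transcripts numbered 917.

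The members and the gene lists were chosen with earlier results of these data known. Named genes were the 10 largest rises and falls, the 3 best supported members of each list and 1 in the other direction, bdh2, and the 5 largest departures of each sign. The rises and falls were taken among probe sets that passed, with 1 symbol and with the Bdh2 array outside the range of the dual arrays. Others were chosen after their values were seen. The fit was tested on simulated data. The simulation gave every array the same spread, so it cannot test whether the lone Bdh2 array varies as the others do. The alternatives were quantile normalization, a filter on dim probe sets, a trended and a robust prior, the replicate number as a block, the 4 arrays alone, each replicate left out, shared probe sets left out and 2 other choices of probe set per gene.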

Additional observations from a re-analysis of the deposited data

Results flagged for a closer look

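In 1261 probe sets, the step between arrays without and with the Atg7 morpholino differed between the Bdh2 and the control background by limma's test of that difference, at an adjusted p under 0.05. The values here are the step on the Bdh2 background (dual minus Bdh2) minus the step on the control background (Atg7 minus control), on the log2 scale, for the genes named above whose difference passed. The lone Bdh2 array enters every one of them, so a deviation of that array would appear in all. No cause was tested.

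In the retina, every named value was positive: crx (2.1005), vsx1 (1.62), atoh7 (1.41), nr2e3 (1.07), tfap2b (0.92), isl1a (0.79), six6b (0.76), otx2b (0.70) and foxn4 (0.67). In the lens it was crygmxl2 (0.67) and crybb1 (0.41), and crybb1 lost its call without control array 2 (adjusted p = 0.0626). The neuron genes were positive too, with stmn1b (0.78), nsfa (0.74), snap25b (0.73), islr2 (0.62), gad1b (0.60), neurod4 (0.60) and syt1a (0.45), of which syt1a lost its call without control array 2 or dual array 2 (adjusted p = 0.0611 and 0.0569). Radial glial and progenitor genes went both ways, with slc1a2b (0.82) and fabp7a (0.67) against her9 (-0.67) and glula (-0.56).

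In fast muscle, the values were atp2a1l (1.75), neb (1.14), pvalb3 (1.04), ldb3a (1.03), pvalb5 (0.82), tnnt3b (0.61), pvalb1 (0.52) and pvalb4 (0.48) on the positive side and tnni2b.1 (-0.78) and nexn (-0.60) on the negative side. For the troponin T gene tnnt2c (-1.01), of the slow and cardiac muscle list, the value was negative as well. Skeleton and fin fold gave and2 (2.13), and3 (1.16), and1 (1.05), col10a1a (0.89), runx3 (0.56) and col1a1a (0.52). The crest and mesenchyme factor prrx1b (0.50) lost its call without any 1 of 7 of the 9 replicated arrays, with Atg7 array 3 and control array 3 as the exceptions (adjusted p up to 0.0796), and DNA replication was represented by lig1 (-0.43) alone, with the limits given above. Early stage and position genes gave gsc (0.95), hes6 (0.78) and hoxc4a (0.47) and, on the negative side, vox (-1.18), cdx4 (-1.15), hoxb1a (-1.09), msgn1 (-0.81), tdgf1 (-0.64) and gata5 (-0.58). The calls of tdgf1 and gata5 were each lost without 1 of 2 arrays, control array 1 or Atg7 array 2 for tdgf1 and control array 2 or dual array 2 for gata5 (adjusted p up to 0.0556).

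Named epidermis and ionocyte genes gave krt17 (-1.42), krt99 (-0.93) and tgm1l4 (-0.72) against atp1a1a.2 (0.58), krt91 (0.52) and atp1a1a.3 (0.41), ear genes gave oc90 (-1.47) and otop1 (-0.56), the notochord gene was ntd5 (-0.58) and the crest marker crestin (-0.53); atp1a1a.3 lost its call without any 1 of 8 arrays, dual array 3 being the exception (adjusted p up to 0.108). Blood gave hbbe2 (1.89), slc4a1a (1.66), alas2 (1.04), hbbe3 (0.88) and hbae3 (0.62). The erythroid median lay below the control mean on the Bdh2, Atg7 and dual arrays alike. Immune genes gave mpx (1.07), lyz (1.05) and ccl25b (0.97) against mmp9 (-1.95), ctsc (-1.67) and ctss2.1 (-1.24). Liver, gut, kidney and endocrine genes gave lhx1a (1.23), leg1.1 (1.1973), fgb (0.81), f5 (0.74), vtnb (0.59), fgg (0.58), sst6.1 (0.56) and pyya (0.41) against uox (-2.11) and alpi.2 (-0.58). The calls of pyya and sst6.1 were lost without any 1 of 8 arrays, Atg7 array 3 being the exception, and without dual array 2 (adjusted p up to 0.0932 and 0.051). Outside the lists, the values were pygl (2.11), zgc:136930 (1.39), hsc70 (1.35), ndrg1b (1.14) and lctla (1.07) against fosab (-2.43), cyp11a1.1 (-2.29), cyp24a1 (-2.06), egln3 (-1.27), nipsnap1 (-1.18) and hspb1 (-1.05).

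With the mean of a gene's probe sets in place of the brightest, the values of foxn4, mpx, runx3, pyya and syt1a did not pass (adjusted p = 0.34, 0.227, 0.081, 0.175 and 0.16).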

How the results depend on the processing

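Between 1815 and 2370 probe sets passed for dual minus Bdh2 under quantile normalization, a filter on dim probe sets, limma-trend and a robust prior, and 1300 in a fit of the 4 dual and Bdh2 arrays alone, of which 543 were lower. With 1 array left out, the counts were 1382 to 1997, with 795 to 1043 higher and 587 to 954 lower, and for the difference between backgrounds 859 to 1231, with 420 to 579 positive and 437 to 652 negative. In the same fits, DNA replication had 15 to 21 members lower (median -0.34 to -0.31), neuron 31 to 33 higher (0.51 to 0.54), retinal transcription factors 13 to 15 (0.28 to 0.30), fast muscle 14 to 19 (0.22 to 0.25) and cartilage, bone and fin fold 13 to 18 (0.21 to 0.25). Only the fits without a dual array could move these medians.

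Arrays with the same replicate number did not deviate together: deviations from group means correlated at -0.37 to 0.20 within a number and at -0.28 to 0.37 between numbers, and the Bdh2 group shares only the number 1. These correlations cannot show whether samples were handled in numbered sets. With the replicate block, which spends degrees of freedom, 1144 probe sets passed (675 higher, 469 lower), and 708 for the difference between backgrounds (348 positive, 360 negative). The cause of these lower counts was not tested. The block left 10 DNA replication members lower, and 8 fast muscle and 11 cartilage, bone and fin fold members higher, with a neuron median of 0.50; the 4 arrays alone left 11 lower and 11 higher in the first 2 lists.

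The neuron median was 0.60 with the dim filter, 0.50 without shared probe sets or with the most variable probe set and 0.42 with the mean of a gene's probe sets. For cartilage, bone and fin fold it was 0.27, 0.19 and 0.15 with the filter, the most variable probe set and the mean, and for retinal transcription factors 0.35 after quantile normalization. The cause of these shifts was not tested. Of 152 genes that passed among those taken by the naming rule or named in the text, 113 passed under every alternative run, 30 lost the call with the replicate block, 30 with the 4 arrays alone and 17 without 1 of the replicated arrays, and 0 were reversed. Several alternatives could not reverse a gene, because they left the difference of a probe set unchanged. These were a control or Atg7 array left out, the trended and robust priors, the dim filter, shared probe sets left out and the 4 arrays alone. A gene whose probe set was removed, by the dim filter or with the shared probe sets, was not counted as lost there. Such genes could not fail under that alternative. Genes lost with the block include mcm2, mcm7, orc3, mad2l1 and plk1 among cell cycle genes, neurod4, slc18a3a and olig2 among neural genes, ckma, mylz3, pvalb3, pvalb4, unc45b and nexn in muscle, col2a1a and col9a1b in cartilage, and gngt2a, guca1c, gata5, hoxb5b, alas2 and ins. Of the differences between backgrounds, 75 of 92 passed under every alternative run and 0 were reversed, with removed probe sets again not counted. Those lost with the replicate block included hoxc4a, krt91, pvalb4, ntd5 and crestin (limma adjusted p = 0.0551, 0.0514, 0.0712, 0.0801 and 0.0513). The Bdh2 array, the only one of its group, could not be left out, so no alternative measures its own spread.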
